A study of Mus musculus with 4 samples.

Results

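The genes described here encode chaperones and proteases of the mitochondrion, 10 in all: the chaperones Hspd1, Hspe1, Hspa9 and Trap1, the matrix proteases Lonp1, Clpp and Clpx, and the inner membrane proteases Yme1l1, Afg3l2 and Spg7. They were chosen by function, by symbol, from 24441 gene symbols in the expression tables. Each symbol was listed at 1 locus, and all 10 were among the 10910 symbols that were tested, those averaging 1 FPKM or more over all 4 libraries. The RNA came from Langerhans cells, which sample antigen in the epidermis, of mice aged 4 weeks. One group was Tfam cKO mice, in which a CD11c-Cre transgene acts on floxed Tfam alleles in cells that express CD11c, with 2 libraries. The other group was wild-type (WT) mice, also with 2 libraries, and the labels name no Cre or floxed allele in them. Libraries are numbered 1 and 2 in each group as in the labels, which do not say which mice, or how many, each came from, so that a p-value reflects no more than how far these libraries spread, which may be technical.

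Proteins enter the mitochondrial matrix unfolded. HSPA9 pulls them in and keeps them soluble, the chaperonin HSPD1 folds them in a closed chamber capped by its partner HSPE1, and TRAP1 is the HSP90-type chaperone of the matrix. LONP1 and the complex of CLPX with CLPP degrade damaged matrix proteins, while YME1L1 and the complexes of AFG3L2 and SPG7 degrade proteins of the inner membrane. When mitochondrial proteins are out of balance, as when gene products of mitochondrial DNA are missing, cells can raise many of these genes, a program called the mitochondrial unfolded protein response, for which ATF5, ATF4 and the CHOP protein encoded by Ddit3 have been named as regulators in mammals. TFAM packages and transcribes mitochondrial DNA.

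Hspd1 and Hspe1 lie head to head on chromosome 1 and are transcribed away from each other. In the RefSeq annotation of GRCm38.p6 their start sites are 216 bases apart, and the promoter windows, 250 bases before to 50 bases after each start, share 285 of 300 bases. This stretch is shown because both genes, which had the highest levels of the 10, start in it. It is given on the Hspe1 strand, 5′ to 3′, at chr1:55087898-55088197, with capitals for the letters TGCAAT, a C/EBP-CHOP core, and for a heat shock element, here the units TTC, GAA and TTC in a row with NN between neighbouring units, with the overlapping match on the other strand.
Hspd1-Hspe1: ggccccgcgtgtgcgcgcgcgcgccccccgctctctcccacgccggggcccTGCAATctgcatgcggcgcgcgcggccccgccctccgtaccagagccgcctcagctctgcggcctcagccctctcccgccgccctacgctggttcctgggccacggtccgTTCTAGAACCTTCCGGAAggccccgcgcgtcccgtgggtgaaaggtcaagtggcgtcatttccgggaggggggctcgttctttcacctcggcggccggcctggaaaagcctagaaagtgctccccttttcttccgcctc

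Both strands were searched for 5 motifs in the windows of the 8 members other than Hspa9 and Afg3l2, 9 windows in all. Letters of the heat shock element were present in the shared Hspd1-Hspe1 window and in no window of Trap1, Lonp1, Clpp, Clpx, Yme1l1 or Spg7. They occur in 0.603% of all 32851 promoter windows. The 2 overlapping matches span bases −89 to −72 from the Hspe1 start. TGCAAT, found in 8.4% of all windows, was likewise present in the shared window alone among the 8 genes. TGATGNAA, the core of the element bound by ATF4 with C/EBP proteins and found in 3.97% of all windows, was in none of them. The ETS motif CCGGAAG, found in 8.86% of all windows, was present in the shared window, where it overlaps the heat shock element, and in those of Clpp and Yme1l1. The motif of the respiratory factor NRF1, GCGCA and GCGC with 1 base of any kind between them, found in 4.6% of all windows, was in those of Spg7 and of a second Hspd1 start. Stretches of 60 bases, from RefSeq on GRCm38.p6 and on the gene's own strand, show these motifs in capitals for Clpp at chr17:56990254-56990313, Yme1l1 at chr2:23156405-23156464 and Spg7 at chr8:123065415-123065474. Each match is a description of letters and not evidence that a factor binds.
Clpp: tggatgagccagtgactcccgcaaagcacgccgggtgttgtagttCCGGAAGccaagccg
Yme1l1: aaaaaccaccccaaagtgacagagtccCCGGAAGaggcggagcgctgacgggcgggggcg
Spg7: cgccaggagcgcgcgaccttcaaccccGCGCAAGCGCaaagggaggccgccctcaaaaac

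Expression is given as FPKM, the fragments of a gene divided by its length and by the library's mapped fragments, so that levels of different genes can be set side by side. The tables record no read depth. From Cufflinks' intervals the depth of Tfam cKO 1, Tfam cKO 2 and WT 2 was 0.884, 1.56 and 1.37 times that of WT 1. Tfam itself, the check of the labels, was listed at 1.65 and 1.53 FPKM in Tfam cKO 1 and 2 and at 3.17 and 1.61 FPKM in WT 1 and 2, so that WT 2 lay among the Tfam cKO libraries, with a log2 fold change of −0.35 and a 95% interval of −0.92 to 0.22 (limma adjusted p = 0.90). It was −0.01 without WT 1 and −0.69 without WT 2. A gene-level value can hold fragments from outside the deleted part, which was not tested. Why WT 2 lay among the Tfam cKO libraries was not tested either. The directions below rest on the labels. The 8 Langerhans cell markers examined, among them Cd207 and Epcam, were all present, with a summed level of 21613 and 16634 FPKM in Tfam cKO and 18513 and 19249 FPKM in WT. Keratinocyte markers were also high. The sum of 9 such genes was 13901 and 12328 FPKM in Tfam cKO and 13804 and 9407 FPKM in WT, lowest in WT 2, and their part in the results was not tested. In 4 T cell markers the sum was 130 and 179 FPKM in Tfam cKO and 183 and 203 FPKM in WT. Fibroblast, melanocyte and endothelial markers summed to at most 5.35 FPKM in any library, and the mast cell markers Cpa3 and Mcpt4 were at 0 in all 4. Y-linked Ddx3y was at 0 in library 1 of both groups, with 9.34 FPKM in Tfam cKO 2 and 28.2 FPKM in WT 2. Xist, which is transcribed from the inactive X chromosome of females, had 39.0 and 45.6 FPKM in Tfam cKO 1 and 2 and 64.6 and 5.38 FPKM in WT 1 and 2. Tfam cKO 2 thus held both Y-linked transcripts and Xist at the level of Tfam cKO 1, and the part of sex in the results was not tested.

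None of the 10 genes passed the test between Tfam cKO and WT, limma on log2(FPKM + 1) with Benjamini-Hochberg adjustment over all tested symbols. Of all tested symbols 2 passed, 0.0183%. That number was 16 without WT 1, 16 without WT 2, 82 without Tfam cKO 1 and 78 without Tfam cKO 2, with 0 of the 10 genes among them. No member reached an unadjusted p below 0.05 either, where 6.21% of all tested symbols did. The 2 Tfam cKO libraries did not lie wholly above or wholly below the 2 WT libraries for any of the 10, while over all tested symbols 25.4% had the Tfam cKO libraries wholly above and 9.75% wholly below. That split was 14.3% above and 19.8% below when all libraries were rescaled to equal totals and 16.4% above and 17.2% below under quantile normalization, with 0 of the 10 genes separate under either. Leaving out a library sets 1 against 2, which separates more readily. Without WT 1, 7 of the 10 lay wholly above and 0 below, against 55.8% and 20.7% of all tested symbols. Without WT 2 it was 1 above and 3 below, against 37.3% and 32.0%. Without Tfam cKO 1 it was 1 above and 2 below, against 40.7% and 19.0%, and without Tfam cKO 2 it was 6 above and 0 below, against 41.9% and 23.0%. The median log2 fold change of the 10 was 0.11 and that of all tested symbols 0.07, and 5 of the 10 were above 0.07. The log2 fold changes ran from −0.03 for Clpp to 0.30 for Hspa9, and limma adjusted p ran from 0.90 to 0.996.

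**Figure D1:**
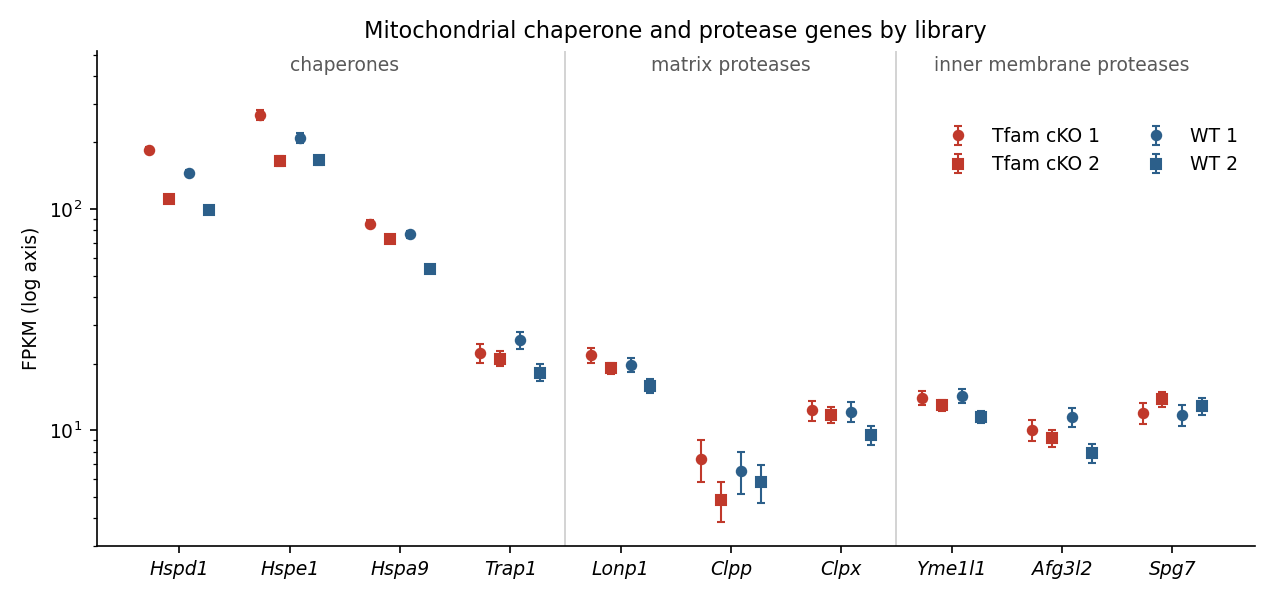
FPKM of the 10 genes in each library on a log axis, Tfam cKO in red and WT in blue, circles for library 1 and squares for library 2, bars for the authors' 95% intervals. The values of both groups overlap for every gene, and the chaperones Hspe1, Hspd1 and Hspa9 stand above the rest.

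Hspd1, the HSP60 chaperonin, was listed at 185 and 111 FPKM in Tfam cKO 1 and 2 and at 145 and 98.7 FPKM in WT 1 and 2. Library 1 was the higher in each group, and the lower Tfam cKO value lay between the WT values. The means were 148 ± 52.5 FPKM in Tfam cKO and 122 ± 32.7 FPKM in WT (SD, n = 2 each), and the log2 fold change was 0.26, its 95% interval running from −0.40 to 0.91 (limma adjusted p = 0.95).

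Hspe1, the co-chaperonin that caps the HSPD1 ring, had 266 and 165 FPKM in Tfam cKO 1 and 2, against 210 and 166 FPKM in WT 1 and 2. Tfam cKO 2 and WT 2 were nearly equal, WT 1 was above both, and Tfam cKO 1 was the highest. The log2 fold change was 0.17, with a 95% interval of −0.43 to 0.77 (limma adjusted p = 0.96).

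Hspa9, the mitochondrial HSP70, also called mortalin, had 85.8 and 73.1 FPKM in Tfam cKO 1 and 2, against 76.7 and 53.7 FPKM in WT 1 and 2. Here the lowest library, WT 2, stood apart from the others. The means were 79.4 ± 8.96 FPKM in Tfam cKO and 65.2 ± 16.3 FPKM in WT (SD, n = 2 each). Its log2 fold change of 0.30 was the largest of the 10, with a 95% interval of −0.20 to 0.80 (limma adjusted p = 0.90). It was 0.18 without Tfam cKO 1, 0.41 without Tfam cKO 2, 0.55 without WT 1 and 0.04 without WT 2. Each of these fits leaves 1 library in a group, so that only the effect size is given.

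Trap1, the matrix HSP90, had 22.3 and 21.0 FPKM in Tfam cKO 1 and 2, against 25.5 and 18.2 FPKM in WT 1 and 2. Both Tfam cKO values lay between the WT values. The log2 fold change was 0.0072, with a 95% interval of −0.44 to 0.46 (limma adjusted p = 0.996), and it was −0.10 under quantile normalization and −0.11 when all libraries were rescaled to equal totals.

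Lonp1, the ATP-dependent protease of the matrix, which in human cells also degrades TFAM that is not bound to DNA, had 21.8 and 19.0 FPKM in Tfam cKO 1 and 2, against 19.8 and 15.8 FPKM in WT 1 and 2. WT 1 lay above Tfam cKO 2. The log2 fold change was 0.19, with a 95% interval of −0.22 to 0.61 (limma adjusted p = 0.93).

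Clpx, the unfolding subunit that feeds CLPP, had 12.3 and 11.7 FPKM in Tfam cKO 1 and 2, against 12.1 and 9.50 FPKM in WT 1 and 2. WT 2 was lower than the others, which lay close together. The log2 fold change was 0.15, with a 95% interval of −0.25 to 0.55 (limma adjusted p = 0.95).

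Clpp, the proteolytic subunit, had the lowest level of the 10, 7.41 and 4.84 FPKM in Tfam cKO 1 and 2 and 6.55 and 5.81 FPKM in WT 1 and 2. The Tfam cKO libraries held both the highest and the lowest value. As deposited, 9 of the 10 genes and 7112 of the 10910 tested symbols had a positive log2 fold change. After rescaling to equal totals, and under quantile normalization, 5 of the 10 did. That of Clpp as deposited was −0.03, with a 95% interval of −0.50 to 0.44 (limma adjusted p = 0.996). Cufflinks' intervals correspond to 84 and 96 fragments in Tfam cKO and 84 and 104 in WT, the fewest of the 10, against 4618 and 4865 in Tfam cKO and 4083 and 3826 in WT for Hspd1. These intervals cover counting error only.

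Yme1l1, the protease that faces the intermembrane space, had 14.0 and 13.0 FPKM in Tfam cKO 1 and 2, against 14.3 and 11.5 FPKM in WT 1 and 2. Afg3l2, a protease that faces the matrix, had 9.97 and 9.17 FPKM in Tfam cKO and 11.4 and 7.88 FPKM in WT. In both genes the Tfam cKO values lay inside the WT range, with log2 fold changes of 0.07 for Yme1l1 and 0.0064 for Afg3l2 (95% intervals −0.33 to 0.46 and −0.45 to 0.46).

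Spg7, which encodes paraplegin and forms joint complexes with AFG3L2, had 11.9 and 13.8 FPKM in Tfam cKO 1 and 2, against 11.7 and 12.8 FPKM in WT 1 and 2. It was the only one of the 10 with library 2 above library 1, and this held in both groups. Its log2 fold change was 0.06, with the narrowest 95% interval of the 10, −0.32 to 0.44 (limma adjusted p = 0.98). For Yme1l1 and Afg3l2 limma adjusted p was 0.98 and 0.996.

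**Figure D2:**
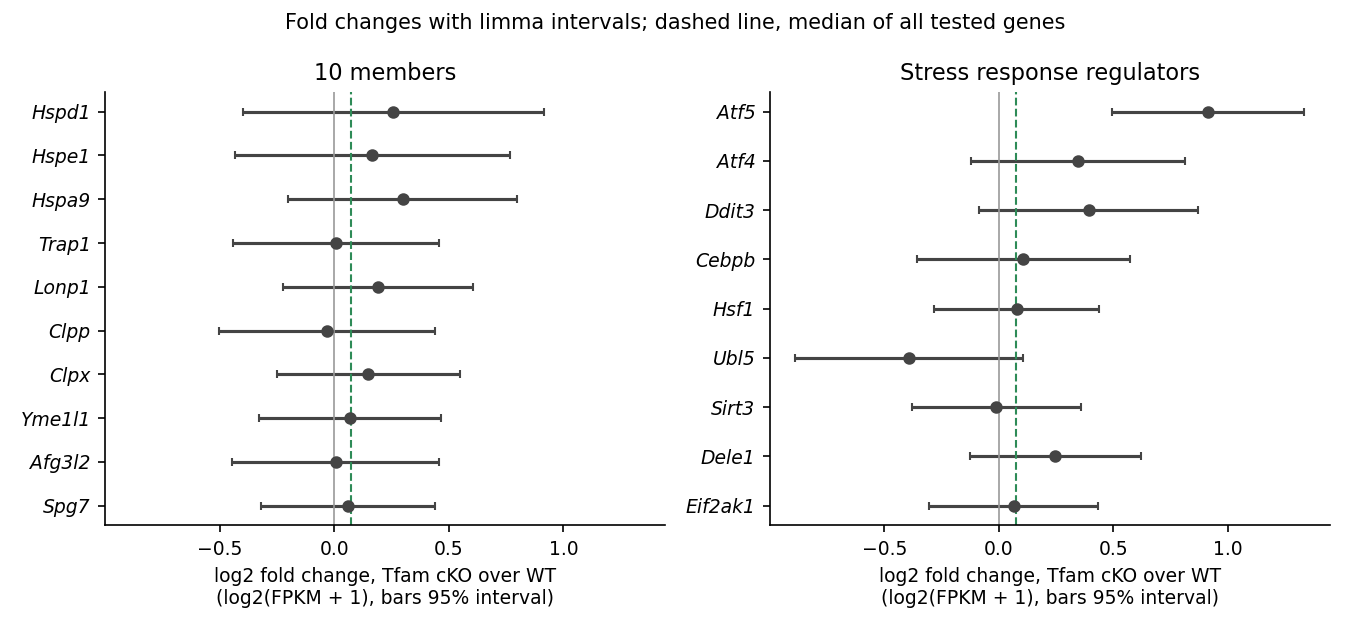
Log2 fold changes of Tfam cKO over WT on log2(FPKM + 1) with 95% intervals from limma, for the 10 genes (left) and for 9 regulators of the stress response (right), with the median of all tested genes as a dashed line at 0.07. All 10 intervals on the left include 0, while that of Atf5 on the right runs from 0.49 to 1.33.

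The intervals hold for these 4 libraries as labelled and under limma's variances. They do not bound the change in Langerhans cells that lack Tfam. Tfam in WT 2 lay among the Tfam cKO libraries, and keratinocyte markers were high in all 4. The upper bound lay below a log2 fold change of 1 for all 10 genes, highest for Hspd1 at 0.91 and lowest for Spg7 and Clpp at 0.44. The lower bound was lowest for Clpp at −0.50. In bulk RNA, fewer cells of a type and less RNA per cell cannot be told apart.

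In order of level, Hspe1 came first with a mean of 202 FPKM over the 4 libraries, then Hspd1 with 135, Hspa9 with 72.3, Trap1 with 21.8, Lonp1 with 19.1, Yme1l1 with 13.2, Spg7 with 12.6, Clpx with 11.4, Afg3l2 with 9.61 and Clpp with 6.15 FPKM. The ranges over libraries were separate between Hspd1 and Hspa9, Hspa9 and Trap1, Lonp1 and Yme1l1, and Afg3l2 and Clpp. Hspe1 and Hspd1 had overlapping ranges, but Hspe1 was above Hspd1 in all 4 libraries. Trap1 was above Lonp1, and Clpx above Afg3l2, in all 4 as well. Yme1l1 and Spg7, and Spg7 and Clpx, changed places between libraries, each being above the other in 2, and did not differ beyond their spread. Hspe1 had a higher level than 97.7% of all tested symbols, Hspa9 than 93.4% and Clpp than 40.2%.

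The 10 genes together summed to 636 and 442 FPKM in Tfam cKO 1 and 2 and to 533 and 400 FPKM in WT 1 and 2, of which the 4 chaperones made up 87.8% and 83.8% in Tfam cKO and 85.8% and 84.2% in WT. The 6 protease genes summed to 77.4 and 71.5 FPKM in Tfam cKO and to 75.9 and 63.3 FPKM in WT. Both sums had library 1 above library 2 in each group, and the groups overlapped.

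Within both groups most of these genes were higher in library 1. Library 1 was above library 2 in 9 of 10 genes in Tfam cKO and in 9 of 10 in WT, where over all tested symbols that held for 52.4% in Tfam cKO and 62.6% in WT. Spg7 was the exception in both groups. The ratio of library 1 to library 2 was largest for Hspd1, 1.67 in Tfam cKO and 1.47 in WT. For Hspe1 it was 1.61 in Tfam cKO and 1.27 in WT. The authors' 95% intervals of library 1 and library 2 were apart for 3 genes in Tfam cKO, Hspd1, Hspe1 and Hspa9, and for 8 in WT, all but Clpp and Spg7. For those genes the difference between libraries of one genotype exceeded counting error. The same share over all tested symbols was not computed, and intervals come apart more readily for genes with many fragments. These counts thus cannot be called particular to the 10 genes.

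The cytosolic and endoplasmic reticulum relatives of the chaperones had the same order of libraries. Of 15 such genes, library 1 was above library 2 in 15 in Tfam cKO and in 15 in WT, with median ratios of 1.21 and 1.44. Hspa8, the constitutive cytosolic HSP70, had 2521 and 1742 FPKM in Tfam cKO 1 and 2, against 2344 and 1805 FPKM in WT 1 and 2. Hsp90ab1, a cytosolic HSP90, had 1746 and 1203 FPKM in Tfam cKO and 1497 and 1058 FPKM in WT. The heat-inducible Hspa1a and Hspa1b, named after their values were seen and summed because their sequences are nearly identical, took 3.22% and 1.84% of all FPKM in Tfam cKO 1 and 2 and 2.46% and 2.09% in WT 1 and 2. Of the 15 genes 0 separated the groups, against 25.4% above and 9.75% below over all tested symbols, and 0 passed the test, against 0.0183%. Their median log2 fold change was 0.16 (limma adjusted p from 0.90 to 0.996). Hspa5, the HSP70 of the endoplasmic reticulum, had a log2 fold change of 0.13, Hsp90b1, its HSP90, of 0.02, and Tcp1, a subunit of the cytosolic chaperonin, of 0.15. The signs for Hspa8 (0.03) and Hsp90b1 turned under both rescalings and that of Hspa5 under quantile normalization.

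**Figure D3:**
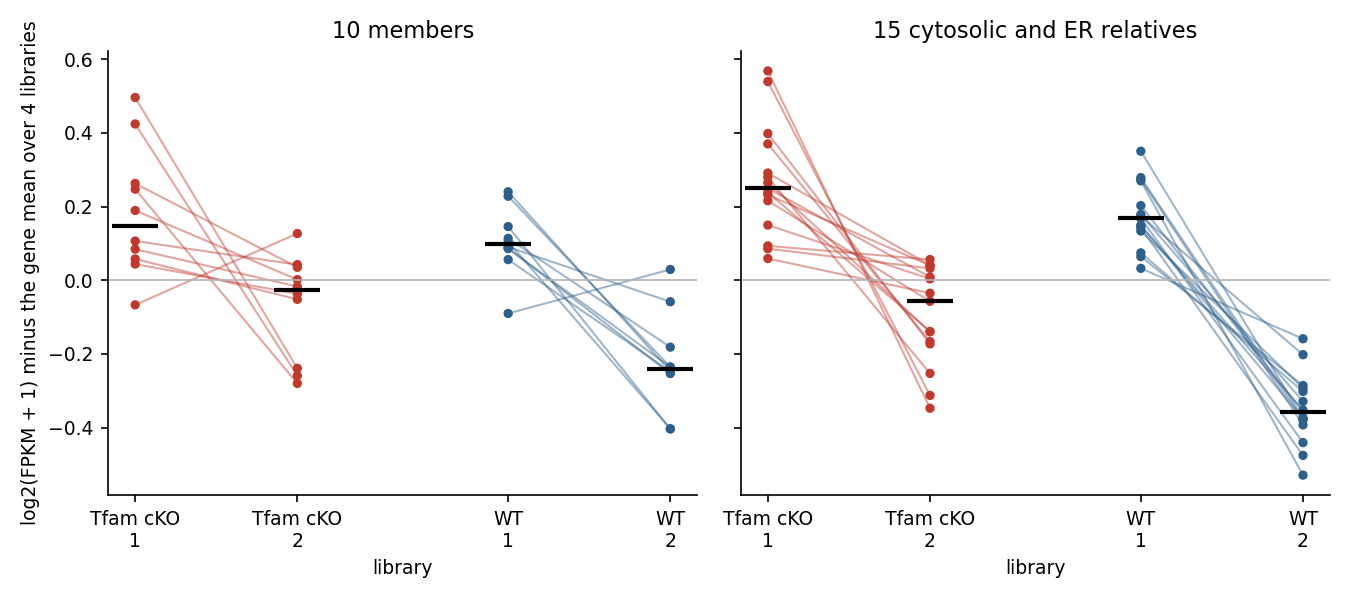
Deviation of each gene's log2(FPKM + 1) from its mean over the 4 libraries, for the 10 mitochondrial genes (left) and 15 cytosolic and endoplasmic reticulum relatives (right), lines joining the 2 libraries of a group, black bars the medians. Library 1 is the higher in 9 of 10 lines on the left and in 15 of 15 on the right in each group.

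Some of the 10 encode partners of one complex, and their ratio within a library is free of any common scaling of a library. Hspd1 to Hspe1 was 0.696 and 0.670 in Tfam cKO 1 and 2 and 0.689 and 0.595 in WT 1 and 2, so that the ratio differed less between the Tfam cKO libraries than either gene did. Clpx to Clpp was 1.66 and 2.42 in Tfam cKO and 1.85 and 1.64 in WT, with the highest value in Tfam cKO 2, where Clpp was lowest. Afg3l2 to Spg7 was 0.836 and 0.665 in Tfam cKO and 0.977 and 0.615 in WT, higher in library 1 of each group. The groups overlapped in Clpx to Clpp and Afg3l2 to Spg7, and in Hspd1 to Hspe1 as well, since WT 1 lay between the Tfam cKO libraries. The log2 ratio differed between Tfam cKO and WT by 0.09 for Hspd1 to Hspe1, 0.21 for Clpx to Clpp and −0.06 for Afg3l2 to Spg7, each less than its pooled SD within groups of 0.11, 0.29 and 0.37. In exact two-sided permutation tests of these 3 ratios p was 0.667, 0.667 and 1 in that order, with a Benjamini-Hochberg adjusted p of 1 for each, where 2 libraries against 2 cannot go below 0.33.

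**Figure D4:**
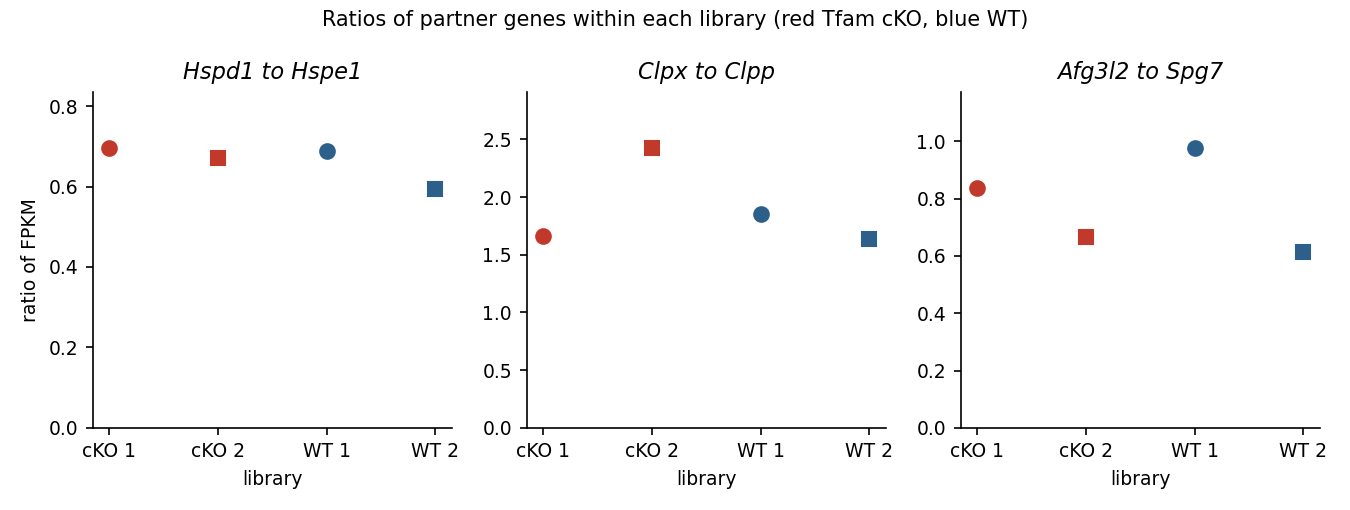
Ratio of FPKM of partner genes within each library, Tfam cKO in red and WT in blue, axes from 0. Hspd1 to Hspe1 lies between 0.595 and 0.696, while Clpx to Clpp runs from 1.64 to 2.42 and Afg3l2 to Spg7 from 0.615 to 0.977.

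Regulators of the mitochondrial unfolded protein response were examined beside the 10 genes. Of 9 regulators 0 passed the test, 5 had the Tfam cKO libraries wholly above the WT libraries and 1 had them wholly below, against 25.4% and 9.75% of all tested symbols. After rescaling to equal totals 2 were above and 2 below, against 14.3% and 19.8%, and under quantile normalization 3 were above and 2 below, against 16.4% and 17.2%. Atf5 had 20.8 and 15.6 FPKM in Tfam cKO 1 and 2, against 9.21 and 8.98 FPKM in WT 1 and 2. Both Tfam cKO values were thus well above the WT values, which lay close together. Its log2 fold change was 0.91 with a 95% interval of 0.49 to 1.33 (limma adjusted p = 0.33, unadjusted p = 0.000965). With a library left out its log2 fold change ran from 0.72 to 1.11.

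Atf4, the transcription factor translated under the integrated stress response, had 474 and 458 FPKM in Tfam cKO and 338 and 397 FPKM in WT. For Ddit3, which encodes CHOP, the values were 77.7 and 72.9 FPKM in Tfam cKO and 48.0 and 67.9 FPKM in WT. Dele1, whose product relays mitochondrial stress to the kinase encoded by Eif2ak1 and which the tables list under an older symbol, had 7.81 and 9.17 FPKM in Tfam cKO and 7.01 and 6.95 FPKM in WT. These 3 genes had log2 fold changes of 0.35, 0.39 and 0.25, none past the threshold (limma adjusted p from 0.86 to 0.89). For Ddit3 it was 0.15 without WT 1 and 0.64 without WT 2. After rescaling to equal totals the groups of Ddit3 and of Dele1 overlapped. Hsf1, the heat shock factor, had 16.7 and 16.6 FPKM in Tfam cKO and 16.0 and 15.5 FPKM in WT. Its log2 fold change of 0.08 turned to −0.01 and −0.04 under the rescalings, and its groups overlapped after rescaling to equal totals.

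Ubl5, a ubiquitin-like protein of the response in worms, had 62.8 and 51.9 FPKM in Tfam cKO and 63.3 and 89.2 FPKM in WT, and its log2 fold change was −0.39 (limma adjusted p = 0.87), with −0.63 without WT 1 and −0.15 without WT 2. As deposited, Cebpb, Sirt3 and Eif2ak1 had overlapping groups, with log2 fold changes of 0.11, −0.01 and 0.07. The log2 fold changes of Cebpb and Eif2ak1 turned negative under the rescalings. After rescaling to equal totals the Tfam cKO libraries lay wholly below the WT libraries for Sirt3. Among these regulators library 1 was above library 2 in 8 of the 9 in Tfam cKO and in 4 of the 9 in WT.

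A further 27 genes of mitochondrial chaperones, cochaperones and proteases gave the wider setting. Of these 0 passed the test, against 0.0183% of all tested symbols. The Tfam cKO libraries lay wholly above the WT libraries for 10 and wholly below for 2, which is 37% and 7.41% of them, against 25.4% and 9.75% of all tested symbols. After rescaling to equal totals 8 were above and 2 below, against 14.3% and 19.8%, and under quantile normalization 7 and 2, against 16.4% and 17.2%. As deposited, the median log2 fold change was 0.10. Ppif, cyclophilin D, a matrix prolyl isomerase that regulates the permeability transition pore, had 15.9 and 19.4 FPKM in Tfam cKO and 11.1 and 11.4 FPKM in WT (log2 fold change 0.60, unadjusted p = 0.00717, limma adjusted p = 0.57). Maip1, a partner of the AFG3L2 protease in the maturation of a subunit of the mitochondrial calcium uniporter, had 9.07 and 6.42 FPKM in Tfam cKO and 6.23 and 4.33 FPKM in WT (log2 fold change 0.48, limma adjusted p = 0.83), and the log2 fold change ran from 0.26 to 0.70 with a library left out. Pmpcb, a subunit of the peptidase that removes targeting sequences, had 16.4 and 16.2 FPKM in Tfam cKO and 13.2 and 12.5 FPKM in WT (log2 fold change 0.32, limma adjusted p = 0.85).

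Both genes below in Tfam cKO encode J-domain proteins of the import motor in which HSPA9 works. They are 7.41% of the 27, against 9.75% of all tested symbols. Grpel1, a cochaperone among the 27 and named after its values were seen, lay wholly above. It had 14.7 and 13.1 FPKM in Tfam cKO and 12.2 and 11.7 FPKM in WT. Hspa9 had a log2 fold change of 0.30, and a change of the motor was not tested. Dnajc15 had 18.8 and 19.8 FPKM in Tfam cKO and 31.9 and 26.3 FPKM in WT (log2 fold change −0.56, unadjusted p = 0.0111, limma adjusted p = 0.63). Dnajc19 had 5.62 and 9.07 FPKM in Tfam cKO and 9.50 and 11.0 FPKM in WT (log2 fold change −0.46, limma adjusted p = 0.84). Its log2 fold change was −0.16 without Tfam cKO 1 and −0.76 without Tfam cKO 2. Phb2, the prohibitin that forms a scaffold around AFG3L2 complexes and the most highly expressed of the 27, had 75.4 and 68.7 FPKM in Tfam cKO and 63.6 and 59.0 FPKM in WT (log2 fold change 0.23, limma adjusted p = 0.91). Stoml2, also an inner membrane scaffold, and Parl, a rhomboid protease of the inner membrane, had overlapping groups, with log2 fold changes of 0.10 and 0.00024 that turned negative when libraries were rescaled to equal totals.

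**Figure D5:**
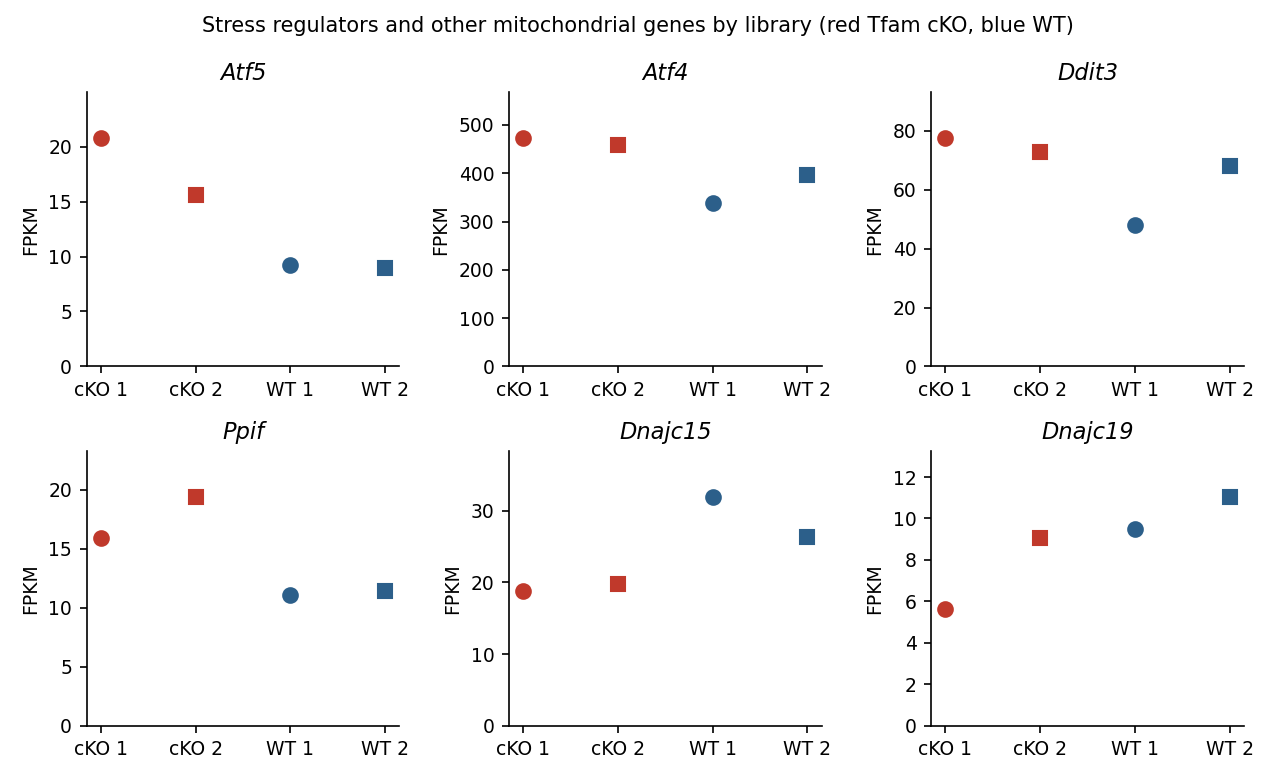
FPKM by library of the regulators Atf5, Atf4 and Ddit3 (top) and of Ppif, Dnajc15 and Dnajc19 (bottom), Tfam cKO in red and WT in blue, axes from 0. As deposited, the groups are separate in each of the 6 genes, and none passed the adjusted threshold. Tfam cKO is higher for Atf5, Atf4, Ddit3 and Ppif and lower for Dnajc15 and Dnajc19. After rescaling to equal totals the groups of Ddit3 overlap. Ppif and Dnajc19 were named because their groups are separate. The other regulators, among them Ubl5 with Tfam cKO below, are not shown. Of all tested symbols 25.4% lay wholly above and 9.75% wholly below.

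Scaling set the sign of the smaller fold changes. Rescaling all libraries to equal totals moved the median of all tested symbols by −0.11, and quantile normalization by −0.08. The median of the 10 genes, 0.04 above that of all tested symbols as deposited, was 0.03 above it after rescaling to equal totals and −0.01 relative to it after quantile normalization. The log2 fold changes of Trap1, Yme1l1, Afg3l2 and Spg7 turned negative under both. Those of Hspd1, Hspe1, Hspa9, Lonp1 and Clpx were positive but smaller. Under rescaling to equal totals and under quantile normalization, Hspd1 had 0.14 and 0.13, Hspe1 0.04 and 0.0013, Hspa9 0.18 and 0.18, Lonp1 0.08 and 0.09, and Clpx 0.04 and 0.05. Clpp had −0.15 and −0.12. Without WT 1 the median of the 10 was 0.28 and without Tfam cKO 2 it was 0.21, while without WT 2 it was −0.014 and without Tfam cKO 1 it was −0.0083.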

How the data were processed

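Per the labels' protocols, Trizol was used for the RNA of sorted epidermal Langerhans cells and the NEBNext Ultra RNA kit for the libraries. Strandedness and RNA selection are not stated. The deposited values are FPKM with 95% intervals, which the authors made with Cufflinks, per the file headers, 1 table per library. The submitters' processing notes list CASAVA, Cufflinks and mm10 with no version. Which aligner and annotation were used is not given in the sources used here. Deposited positions overlapped the GRCm38 gene of the same symbol for 1 of 10 members, so none is printed, and promoters come from RefSeq on GRCm38.p6.

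FPKM of symbols at several loci (301) were summed. Those averaging 1 FPKM or more were tested on log2(FPKM + 1), which understates changes of low genes. The fit was made with limma 3.58.1 in R 4.3.3 (genotype only, mean trend, Benjamini-Hochberg at 0.05). The code was also run on simulated data with independent libraries, which does not show how the test behaves on these libraries. Fragment numbers were derived from the interval widths, assuming 2 standard errors on each side. They were whole within 0.02 in all libraries for 73 of 9644 genes, which gave the relative depths, and they cover counting error only. The 10 genes and the lists around them were chosen with earlier results of these data known. Named are the 10 genes, Tfam, all stress regulators, 5 relatives of the chaperones and, of the 27 other genes, the 4 of highest level and up to 3 in each direction with the largest change among those with separate groups. Correlations were not computed over 4 libraries. Promoters and figures were handled in Python 3.11.15 (matplotlib 3.10.9).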

Additional observations from a re-analysis of the deposited data

How the results depend on the processing

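None of the 10 genes passed limma's adjusted threshold under any of 14 alternatives, where the lowest adjusted p was 0.28. At an unadjusted p below 0.05 their number was 0 in each alternative that kept all 4 libraries. Symbols called over the whole table, 2 as reported, were 0 without a low-value filter, 1 with a filter at 5 FPKM, 1 with a pseudocount of 5, 5 with robust moderation, and from 16 to 82 with a library left out, which assumes that a lone library varies as the other group does. The replicate number as a block gave 184. The labels do not say that a number marks shared mice or a batch. Deviations of same-numbered libraries correlated with r = 0.26 across genes, and Y-linked transcripts and chaperone levels also split by number. Under the block no member passed and Atf5 did (adjusted p = 0.00119), the 1 call among the genes of the lists around the members. With a library left out these calls ranged from 0 to 1 (Atf5, without Tfam cKO 2). For Atf5 adjusted p ranged from 0.00119 to 0.86 and the log2 fold change from 0.71 to 1.11. Members with separate groups numbered 3 to 7 with a library left out, where 1 library against 2 separates more easily. Over all tested symbols, from 37.3% to 55.8% then lay wholly above and from 19.0% to 32.0% wholly below. The median log2 fold change of the members then ranged from −0.01 to 0.28. The log2 ratio ranged from −0.01 to 0.20 for Hspd1 to Hspe1, from −0.07 to 0.48 for Clpx to Clpp and from −0.39 to 0.28 for Afg3l2 to Spg7.

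Log2 fold changes turned under quantile normalization for Trap1 (−0.099), Yme1l1 (−0.030), Afg3l2 (−0.082), Spg7 (−0.043), Parl (−0.099), Cebpb (−0.037), Hsf1 (−0.0096), Eif2ak1 (−0.042), Hspa8 (−0.058), Hspa5 (−0.055) and Hsp90b1 (−0.078). Rescaling to equal totals gave Trap1 −0.11, Yme1l1 −0.049, Afg3l2 −0.11, Spg7 −0.057, Stoml2 −0.011, Parl −0.12, Cebpb −0.016, Hsf1 −0.040, Eif2ak1 −0.052, Hspa8 −0.097 and Hsp90b1 −0.099, and a pseudocount of 5 gave Parl −0.0018. With a library left out the ranges were −0.11 to 0.63 for Hspd1, −0.18 to 0.51 for Hspe1, −0.22 to 0.24 for Trap1, −0.30 to 0.23 for Clpp, −0.012 to 0.31 for Clpx, −0.080 to 0.22 for Yme1l1, −0.24 to 0.25 for Afg3l2, −0.036 to 0.16 for Spg7, 0.04 to 0.55 for Hspa9 and 0.04 to 0.34 for Lonp1. They were −0.25 to 0.46 for Stoml2, −0.22 to 0.22 for Parl, −0.076 to 0.29 for Cebpb, −0.037 to 0.016 for Sirt3, −0.016 to 0.15 for Eif2ak1, −0.24 to 0.29 for Hspa8, −0.077 to 0.33 for Hspa5, −0.064 to 0.47 for Hsp90ab1, −0.34 to 0.39 for Hsp90b1 and −0.13 to 0.43 for Tcp1. Of 461 values of named genes under alternatives, 50 turned in sign and 2 passed the threshold. The cause was not tested.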
